A study of Mus musculus with 8 samples.

Results

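The comparison was between H3K27ac in small intestinal crypts of fed mice given tetracycline, Fed_(+Tetra), and of fed mice not given it, Fed_(-Tetra). These mice were 9-week-old male C57BL/6J with food available, the tetracycline course lasted 21 days, and crypts were dissociated to single cells before CUT&Tag, in which an antibody to a chromatin mark directs a transposase that tags the DNA around it. Each state was 1 sample with 2 peak lists, so 2 of the 8 samples and 4 of the 16 peak lists of the series entered the comparison; the other samples held fasted mice, fasted for 24 h, and the mark H3K9ac. Overlapping peaks of the 4 lists on chromosomes 1 to 19, X and Y were merged into 60056 regions, against 112301 when all 8 H3K27ac lists were merged. A region was called only with tetracycline when both Fed_(+Tetra) lists and neither Fed_(-Tetra) list had a peak in it, and only without tetracycline in the reverse case. Genes with a peak overlapping the 1 kb around either of their ends counted as marked. The labels do not say whether lists 1 and 2 of a sample came from different mice, so every spread and p-value measures only the difference between lists, which may be technical.

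H3K27ac is an acetylation of histone H3 found at active promoters and enhancers, so a peak marks a regulatory element in use in at least some of the cells. The crypt epithelium holds stem cells, dividing progenitors and secretory cells, and lymphocytes lie between its cells. Gut bacteria are known to induce a set of epithelial defence genes, such as the antimicrobial lectins of the Reg3 family and the hydrogen peroxide producing oxidase Duox2, and to raise MHC class II on epithelial cells through interferon gamma from lymphocytes. Antibiotics such as tetracycline act on those bacteria by blocking their ribosomes.

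Some promoters were covered by peaks in both lists of a state and neither list of the other. The following 250 bases before the start site (RefSeq, GRCm38.p6, each 5′ to 3′ on the gene's strand) were chosen because they carry the class II, cytotoxic, oxidase and fat-metabolism calls. In the first 4 of them capitals mark CCAAT or its reverse complement ATTGG, the box read by NF-Y and part of the promoter module shared by class II genes. H2-Aa (chr17:34287824-34288073, minus strand), H2-Eb1 (chr17:34305617-34305866, plus strand) and Duox2 (chr2:122298228-122298477, minus strand) were covered in both Fed_(-Tetra) lists, and Acot1 (chr12:84009252-84009501, plus strand) in both Fed_(+Tetra) lists. In Gzma (chr13:113100982-113101231, minus strand) and Gzmb (chr14:56262335-56262584, minus strand), both covered only in the Fed_(-Tetra) lists, capitals mark TGTGGT or its reverse complement ACCACA, the core read by RUNX factors.
H2-Aa: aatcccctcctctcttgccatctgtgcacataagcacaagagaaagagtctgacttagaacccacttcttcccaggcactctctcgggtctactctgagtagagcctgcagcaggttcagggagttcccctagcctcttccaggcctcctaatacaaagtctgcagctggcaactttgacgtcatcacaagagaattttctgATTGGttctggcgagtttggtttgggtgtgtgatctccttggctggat
H2-Eb1: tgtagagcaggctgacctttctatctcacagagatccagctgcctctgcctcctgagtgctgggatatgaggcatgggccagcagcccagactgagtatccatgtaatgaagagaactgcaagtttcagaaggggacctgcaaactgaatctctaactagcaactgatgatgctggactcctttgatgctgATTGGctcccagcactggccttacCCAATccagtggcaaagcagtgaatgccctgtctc
Duox2: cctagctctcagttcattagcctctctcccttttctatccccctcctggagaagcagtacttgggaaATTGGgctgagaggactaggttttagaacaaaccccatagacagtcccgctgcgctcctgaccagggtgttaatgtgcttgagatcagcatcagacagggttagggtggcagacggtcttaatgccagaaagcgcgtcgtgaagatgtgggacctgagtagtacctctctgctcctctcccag
Acot1: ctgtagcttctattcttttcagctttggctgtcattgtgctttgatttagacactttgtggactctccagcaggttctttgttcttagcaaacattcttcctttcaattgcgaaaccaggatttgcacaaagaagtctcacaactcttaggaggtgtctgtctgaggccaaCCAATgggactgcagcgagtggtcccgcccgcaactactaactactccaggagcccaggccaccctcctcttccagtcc
Gzma: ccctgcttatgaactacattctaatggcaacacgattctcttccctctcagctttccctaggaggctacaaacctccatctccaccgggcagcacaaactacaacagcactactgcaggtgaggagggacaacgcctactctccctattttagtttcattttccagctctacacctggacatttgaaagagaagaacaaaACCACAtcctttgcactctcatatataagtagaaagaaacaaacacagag
Gzmb: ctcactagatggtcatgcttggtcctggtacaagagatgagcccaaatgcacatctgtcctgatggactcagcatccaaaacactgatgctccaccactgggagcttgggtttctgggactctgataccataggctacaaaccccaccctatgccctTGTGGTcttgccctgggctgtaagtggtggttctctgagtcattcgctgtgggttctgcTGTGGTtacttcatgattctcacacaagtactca

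In H2-Aa, H2-Eb1, Gzma and Gzmb, peaks covered all 250 bases in both Fed_(-Tetra) lists and 0 bases in both Fed_(+Tetra) lists. In Duox2 they covered 250 and 173 bases without tetracycline and 0 with it. For Acot1 the reverse held, with 0 and 0 bases without and 250 and 250 with tetracycline. The box CCAAT, searched on both strands with overlaps allowed, stood 48 bases before the start of H2-Aa in reverse, and 59 bases before (reverse) and 35 bases before (forward) that of H2-Eb1. Of the 193 windows covered only without tetracycline 34.2% held it, as did 28.2% of the 117 covered only with it and 33.9% of all 32851 windows. TGTGGT stood 93 and 34 bases before the start of Gzmb and, in reverse, 50 bases before that of Gzma. It was in 23.3% of the windows covered only without tetracycline, in 9.40% of those covered only with it, in 9.79% of the 9103 covered in all 4 lists and in 14.0% of all windows. Over the 160 windows of genes marked only without tetracycline and the 71 of genes marked only with it, TGTGGT was in 18.1% and 9.86%. CCAAT was in 34.4% and 39.4% of those. These shares describe letters in the windows and were not tested.

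No difference between the states in the amount of the mark called passed a test. The Fed_(-Tetra) lists held 36340 and 47565 peaks over 37.7 and 53.2 Mb, and the Fed_(+Tetra) lists 32392 and 48242 peaks over 33.1 and 56.0 Mb, so list 1 was the shorter in both states and the states overlapped. Peak number (log2 ratio -0.07, with over without), covered length (-0.06), the share of peaks at gene ends (0.58 percentage points) and width in shared regions (0.01) all gave p = 1 by two-sided exact permutation of the 4 lists, where the smallest p the design allows is 0.33. The lists were also no more alike within a state than between states (mean Jaccard index lower by 0.03 within, one-sided exact permutation p = 0.67). Adjusted over these 5 tests every p was 1. The most similar pair was list 2 of each state, with a Jaccard index of 0.638, and the other 5 pairs lay between 0.490 and 0.521. Of the crypt cell markers, 17 to 20 of 20 enterocyte genes but only 1 to 2 of 12 Paneth cell genes were marked in each fed list, and the stem cell genes Lgr5 and Ascl2 had no covered base in any of them.

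A peak was present in all 4 lists in 21291 regions and in 1 list only in 19471. Called only without tetracycline were 1658 regions (2.76% of all), and only with it 924 (1.54%). With the same number of top-scoring peaks taken from every list, the order turned, with 1221 regions only without and 1291 only with tetracycline. The called regions were weak and mostly away from gene ends: 13.2% of those only without and 11.5% of those only with tetracycline lay at a gene end, against 20.8% of all regions and 37.1% of those in all 4 lists. Their median score percentiles within a list were 29.5 and 24.2. Among 21887 protein-coding genes, 162 were marked only without tetracycline (0.74%) and 81 only with it (0.37%), and 8565 were marked in all 4 lists. The 162 genes fell into 155 loci when genes within 10 kb were joined, and the 81 into 80, so few calls were shared by neighbours. Of the genes on the lists, 4 of 8 class II genes and 3 of 16 immune cell markers were among the 162, and 1 of 20 fat oxidation and ketone body genes among the 81. All gene lists were chosen with earlier results of these data known. Their shares, here and below, are thus no independent test when set beside those of all genes.

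MHC class II, which presents peptides to CD4 T cells, was the list with the most members called only without tetracycline: 4 of 8, against 0.74% of all genes, and none only with it. The members were H2-Aa and H2-Ab1, the chains of the I-A molecule, H2-Eb1, a chain of I-E, and H2-DMb1, part of the chaperone that loads peptides. In the Fed_(-Tetra) lists 7 and 5 of the 8 genes were marked and in the Fed_(+Tetra) lists 1 and 1, the gene marked throughout being H2-DMa. Without each list in turn 4 to 6 members were called, but only 1 when the upper 0.5 of each list by score was used.

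Covered length, the base pairs under peaks in a gene and 5 kb on each side, showed how far apart the lists were. H2-Ab1 (chr17:34263227-34269418) had 3716 and 2573 bp covered without tetracycline and 0 and 1052 bp with it (log2 change -2.66, SE 0.67, limma adjusted p = 0.38). H2-Aa had 2665 and 1798 bp against 525 and 827 bp (log2 change -1.42, SE 0.44, limma adjusted p = 0.57). H2-Eb1 had 4584 and 3533 bp against 1462 and 1562 bp (log2 change -1.25, SE 0.34, limma adjusted p = 0.43). In all 3 both untreated lists lay above both tetracycline lists, but no change passed the test over all genes. Ciita, the transactivator that switches class II genes on, had 3465 and 3398 bp against 802 and 1948 bp. Cd74, the invariant chain, had 3470 and 784 bp against 632 and 0 bp. H2-DMb1 and H2-DMb2 lie side by side and share peaks, with 1237 and 1047 bp without and 0 bp in both lists with tetracycline. H2-DMa went the other way by a small margin, with 6650 and 8717 bp against 6461 and 9068 bp.

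**Figure D1:**
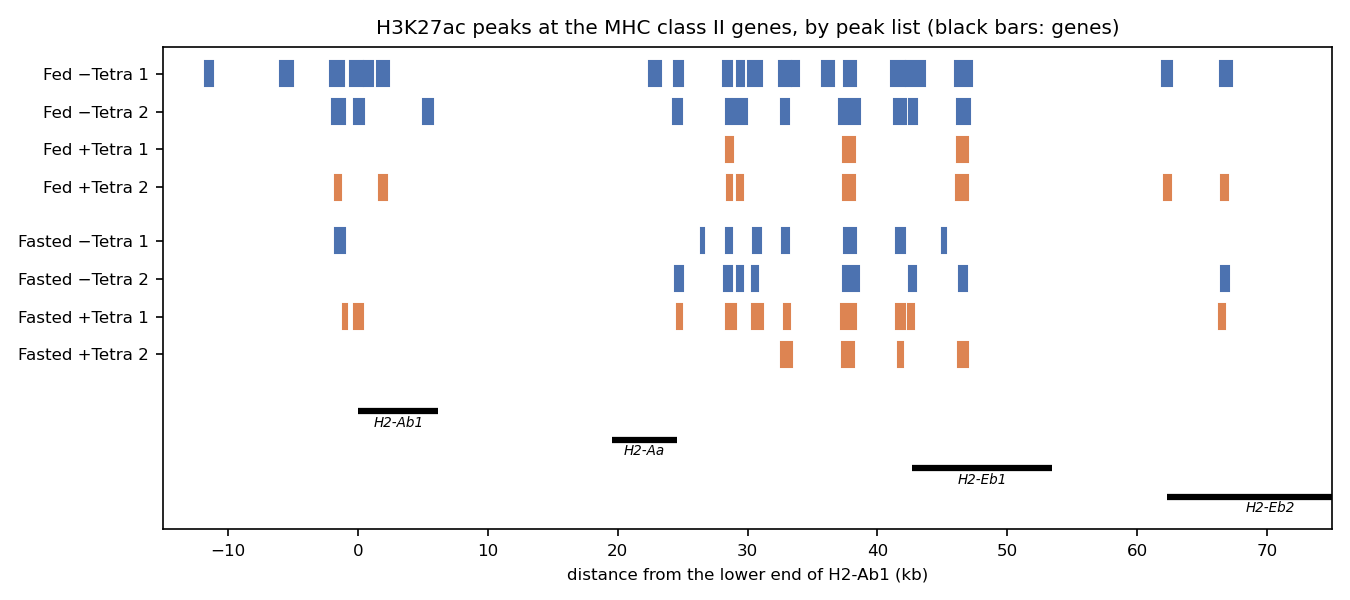
Peaks of the 8 H3K27ac lists around H2-Ab1, H2-Aa and H2-Eb1, drawn as boxes in 1 row per list (blue without, orange with tetracycline) against distance in kb from the lower end of H2-Ab1, with genes as black bars. The Fed_(-Tetra) rows are the fullest, and peaks over the starts of H2-Aa and H2-Eb1 are missing from both Fed_(+Tetra) rows.

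For the 8 genes together both untreated lists lay above both tetracycline lists in 7 of 8, against 7.65% of all genes, and the median log2 change was -1.79, against 0.04 over all 12546 genes tested. The 7 include H2-DMb1 and H2-DMb2, which share peaks, and the neighbours H2-Ab1, H2-Aa and H2-Eb1, so they are not 7 independent observations. The median was -1.01 with 1000 bp added before taking logs, and -0.94 over the 5 members tested without Fed_(-Tetra) list 1. Their summed length per Mb covered over all genes was 0.738 and 0.456 kb without and 0.307 and 0.275 kb with tetracycline, so the states did not overlap. In fasted mice they did, with 0.265 and 0.261 kb per Mb without and 0.297 and 0.251 kb per Mb with tetracycline, and 3 and 3 against 6 and 2 genes marked.

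Genes of lymphocytes held the next largest number of calls. Of the 16 immune cell markers, 3 were called only without tetracycline and none only with it, against 0.74% and 0.37% of all genes: Cd8a, the co-receptor of cytotoxic T cells, and Gzma and Gzmb, the proteases of their granules. No immune marker was called only without tetracycline when the upper 0.5 of each list by score was used. Gzma (chr13:113093824-113100981) had 7586 and 2457 bp without and 0 bp in both lists with tetracycline, and Gzmb 3384 and 1514 bp against 0 and 0 bp. Cd8a had 2695 and 1740 bp against 0 and 0 bp. Fed_(-Tetra) list 1 was the highest for each of these genes, list 2 was lower, and both tetracycline lists were at 0. With limma their adjusted p-values were 0.19, 0.48 and 0.50. Their fitted log2 changes, -4.45, -3.58 and -3.51, depend on the 200 bp added before taking logs and are no measure of size: with 1000 bp added that of Gzma was -2.41 (limma adjusted p = 0.034), which passed, and without Fed_(-Tetra) list 1 its adjusted p was 0.9996. The T cell receptor chains Cd3e and Cd3d had 1749 and 1342 against 478 and 568 bp, and 3624 and 2224 against 0 and 1322 bp.

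Over the whole list, 8 and 8 of the 16 immune markers were marked without and 2 and 5 with tetracycline, and the summed length was 32.2 and 23.4 kb against 7.65 and 18.2 kb. Per Mb covered over all genes it was 0.879 and 0.466 kb against 0.237 and 0.347 kb, so Fed_(-Tetra) list 1 stood highest, and list 2 also exceeded both tetracycline lists. Both untreated lists lay above both tetracycline lists in 7 of the 16 genes, against 7.65% of all genes. The median log2 change of the 12 markers tested was -0.41, with 10 below 0, and it was -0.30 with 1000 bp added. Cd4 and Lyz2 were at 0 in all 4 fed lists and Ptprc, the pan-leukocyte marker, in all but Fed_(-Tetra) list 1, which had 1507 bp. The macrophage genes Csf1r (0 and 1043 against 841 and 2756 bp) and Adgre1 (0 and 863 against 387 and 947 bp) overlapped between the states. In these bulk libraries, fewer lymphocytes among the cells and less of the mark in each lymphocyte cannot be told apart. The part that this movement of immune markers has in the other differences, class II included, was not tested. In fasted mice the list had 0.437 and 0.458 kb per Mb without and 0.50 and 0.505 kb per Mb with tetracycline, and 7, 8, 7 and 8 marked genes.

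Antigen receptor loci, which only B and T cells rearrange, were looked at after the calls had been seen, since a strong call lay inside one. The immunoglobulin heavy chain locus Igh (chr12:113258768-116009954) held 19 of the 1658 regions only without tetracycline and none of those only with it. Peaks covered 40489 and 29048 bp of it without and 1497 and 9430 bp with tetracycline. The T cell receptor loci had 2 such regions in Tcra, 2 in Tcrb and 3 in Tcrg, and no region of the other direction. Over all regions 2.76% were called only without and 1.54% only with tetracycline. How many merged regions lie in each locus was not counted, so these counts cannot be set against those shares. Tcrg had 16340 and 6845 bp covered without and 0 and 4005 bp with tetracycline, and Tcrb 10041 and 2753 bp against 0 and 2410 bp. Fed_(-Tetra) list 1 was again the highest in each, and list 2 exceeded both tetracycline lists in all 4 of these loci, by little in Tcrb. The light chain locus Igk ran against this, with 1043 and 3099 bp without and 375 and 3787 bp with tetracycline. In fasted mice Igh had 22494 and 20058 bp without and 14483 and 21383 bp with tetracycline.

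**Figure D2:**
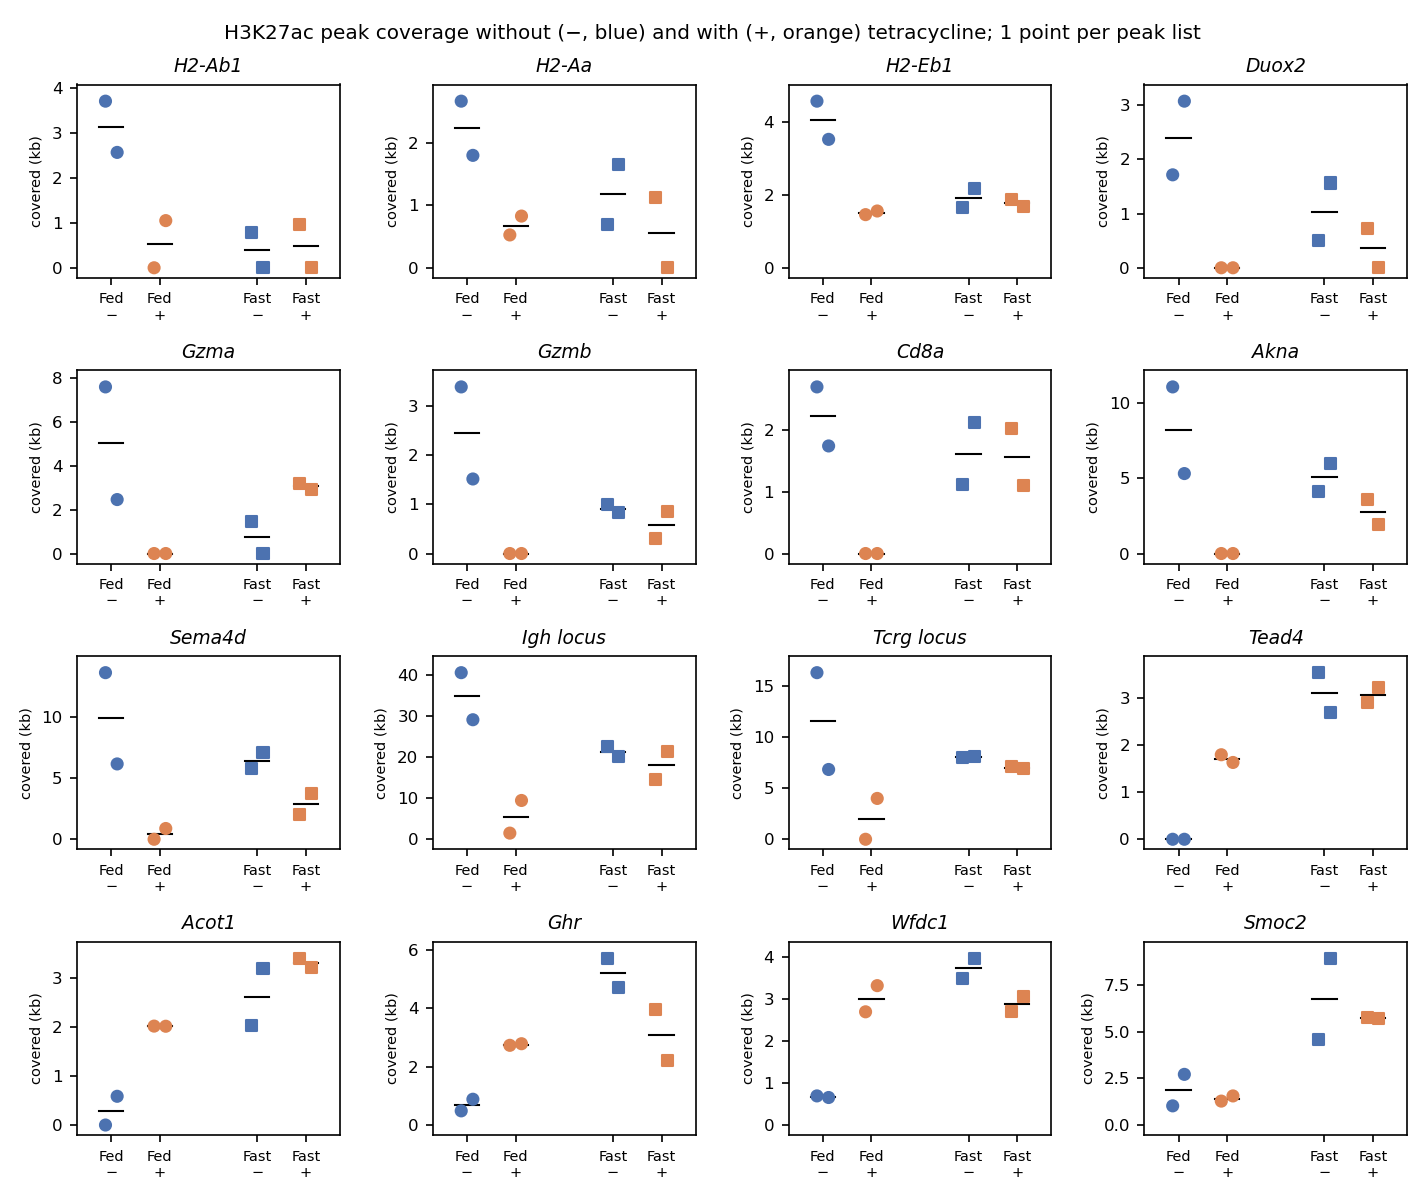
Length in kb covered by H3K27ac peaks in 14 genes (with 5 kb on each side) and 2 antigen receptor loci, with 1 point per peak list (circles fed, squares fasted, blue without, orange with tetracycline) and a bar at the mean of the 2 lists. Class II, granzyme, Cd8a, Akna, Sema4d, Igh and Tcrg panels are high in Fed_(-Tetra) and low in Fed_(+Tetra), whereas Tead4, Acot1, Ghr and Wfdc1 are lower in Fed_(-Tetra) than in the other 3 groups.

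The only gene that passed the test over all genes was Akna (chr4:63367123-63411094), which encodes an AT-hook protein first described as a regulator of CD40 in lymphocytes. It had 11087 and 5321 bp covered without and 0 bp in both lists with tetracycline, so coverage fell (fitted log2 change -5.25, SE 0.56, limma adjusted p = 0.036). The size is set by the 200 bp added, and was -3.09 with 1000 bp added. That is 1 of 12546 genes tested (0.00797% lower, 0% higher), with 471 lower and 269 higher at an unadjusted p under 0.05. With the list number as a block no gene passed (adjusted p of Akna 0.81). Without Fed_(-Tetra) list 1 its adjusted p was 0.9996, and with equal numbers of top-scoring peaks it was 0.84. With 1000 bp added in place of 200 bp before taking logs, 30 genes passed as lower and none as higher, Akna among them (adjusted p = 0.0024).

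Ranked by p, the next genes with less coverage under tetracycline were Tg, Nfatc1, Sema4d, Selplg, Sla, Fnbp1, Susd3, Padi2 and Gzma, with limma adjusted p-values from 0.13 to 0.19. Several are known from lymphocytes. Nfatc1, a transcription factor activated through calcineurin, had 9429 and 5269 bp against 682 and 1001 bp. Sema4d, a semaphorin of T cells, had 13601 and 6150 bp against 0 and 879 bp, and 5 regions called only without tetracycline within 25 kb. Selplg, the ligand of P-selectin on leukocytes, had 6467 and 3126 bp against 0 and 0 bp. Sla, an adaptor that dampens T cell receptor signals, lies within Tg, the thyroglobulin gene, and the pair share peaks: Sla had 8516 and 2824 bp and Tg 9859 and 3473 bp without tetracycline, and both had 0 bp in both lists with it. Fnbp1 had 3231 and 4539 bp against 565 and 1173 bp, and Padi2, a deiminase, 4583 and 5367 bp against 0 and 937 bp, so that in these 2 genes list 1 was not the higher of the untreated lists.

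**Figure D3:**
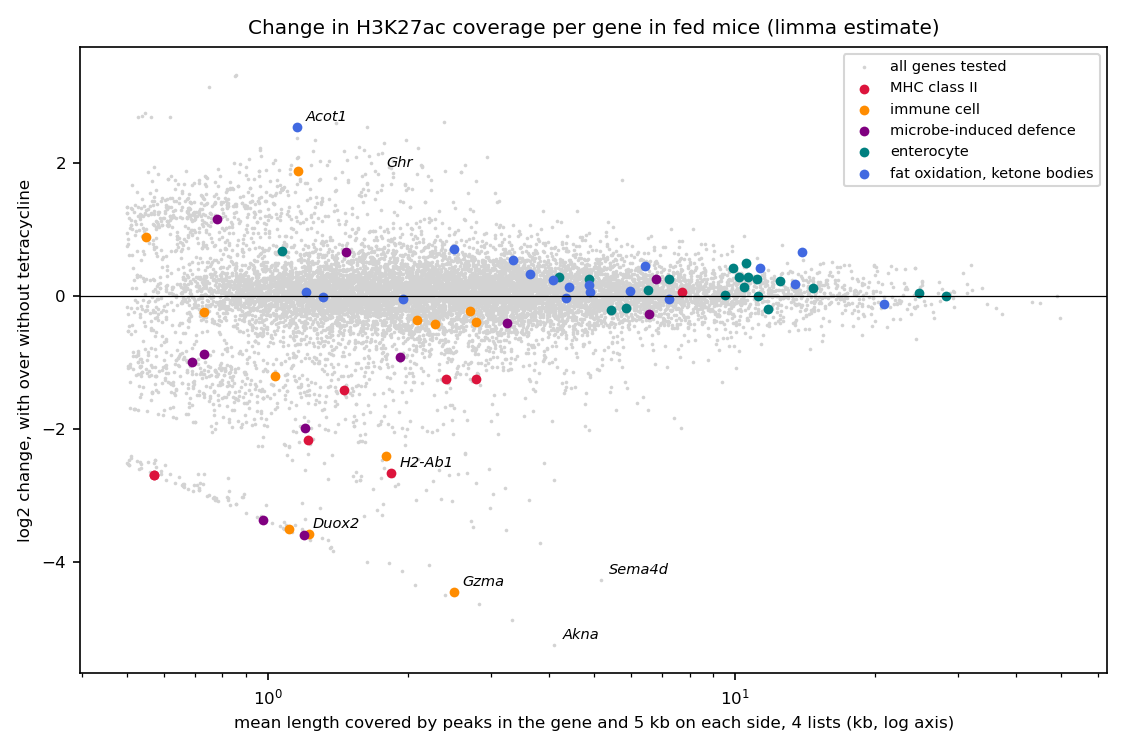
Estimated log2 change in covered length (with over without tetracycline) for the 12546 genes tested, against mean covered length in kb on a log axis, with 5 gene lists coloured. Class II, immune and microbe-induced defence genes reach far below 0, enterocyte and fat oxidation genes other than Acot1 lie nearer to it, and the slanting line at the lower left holds genes with 0 bp in both tetracycline lists.

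Ranking the 162 genes marked only without tetracycline by the score percentile of their peaks put Celf3, Ptpn7, Osgin1, H2-Ab1, Sh2d2a, Nedd9, Gzmb, Cmtm7, H2-Eb1, Cbfa2t3, Stat5b and Rnf122 first. Ptpn7, a phosphatase of blood cells, had 5746 and 3784 bp against 2258 and 2483 bp and was called the same way in fasted mice. Sh2d2a, an adaptor of T cells, had 2370 and 1714 bp against 0 and 0 bp. Stat5b, which carries cytokine signals, differed less, with 2545 and 2585 bp against 1515 and 2203 bp, and Nedd9 was called from its ends while its whole territory had 18379 and 20792 bp against 13931 and 18797 bp. Genes with the most called regions in the gene and 25 kb on each side were Cdc20b with 6 and Ccl3, Ccl4, Il4ra, Sema4d, H2-Aa, Gzma and Sash3 with 5 each. Cdc20b overlaps Gzma, and the chemokine genes Ccl3 and Ccl4 overlap each other, so these share regions. Ccl4 had 4574 and 2029 bp against 0 and 447 bp. Il4ra, a chain of the interleukin 4 receptor, overlapped between the states, with 7853 and 9054 bp against 4205 and 9957 bp. Further members of the 162, picked after their values were seen, were Fasl, a death ligand of cytotoxic cells (2552 and 1688 bp against 0 and 0 bp), and Prf1, the pore protein of their granules (894 and 902 bp against 0 and 0 bp).

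Genes that the gut epithelium is known to induce in response to microbes gave 2 calls of 20 only without tetracycline and none with it, against 0.74% and 0.37% of all genes. They were Duox2, a hydrogen peroxide producing oxidase, and Duoxa2, its maturation factor, which lie head to head on chromosome 2 and share 1 called region, so they count as 1 observation. Duox2 had 1716 and 3076 bp without and 0 bp in both lists with tetracycline, and Duoxa2 1716 and 2200 bp against 0 and 0 bp (limma adjusted p = 0.42 and 0.59). Fed_(-Tetra) list 2 was the higher here, unlike in the granzyme genes. Tifa, an adaptor for bacterial sugar sensing, had 1732 and 2021 bp against 0 and 1060 bp, and Nos2, which makes nitric oxide, 2589 and 2544 bp against 826 and 1717 bp. Saa1, a serum amyloid, had 948 and 1016 bp against 200 and 751 bp. Il18 (5132 and 7491 against 5751 and 8772 bp) and Pigr, the transporter of IgA (6676 and 7546 against 3759 and 8281 bp), overlapped between states. The lectin gene Reg3g had 492 bp in 1 untreated list and none elsewhere, and Reg3b 1202 bp in 1 tetracycline list and none elsewhere.

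Over that list, 9 and 10 genes were marked without and 4 and 7 with tetracycline. Both untreated lists exceeded both tetracycline lists in 5 of 20 genes and the reverse held in 1, against 7.65% and 4.58% of all genes. The 5 include both Duox2 and Duoxa2, which count as 1 observation. The median log2 change over the 11 members tested was -0.88 and none passed the test. It was -0.52 without Fed_(+Tetra) list 1, -0.32 with 1000 bp added and -0.35 over the 15 members tested with 25 kb on each side. Summed length per Mb was 0.692 and 0.704 kb without and 0.473 and 0.558 kb with tetracycline. Fasted mice had 0.634 and 0.663 kb without and 0.533 and 0.669 kb with tetracycline, so their states overlapped. The receptors that sense microbes were marked alike, at 12 of 18 genes in each fed list, with no member called and 4 of 18 lower in both tetracycline lists. Of 20 interferon response genes 15 to 16 were marked in each list and none was called. Of these 20, 6 had less coverage in both tetracycline lists and none more, against 7.65% and 4.58% of all genes. Their median log2 change was -0.15, with 14 of 17 tested below 0, but it was -0.05 without Fed_(-Tetra) list 1, -0.41 without Fed_(-Tetra) list 2 and -0.01 with 25 kb on each side.

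**Figure D4:**
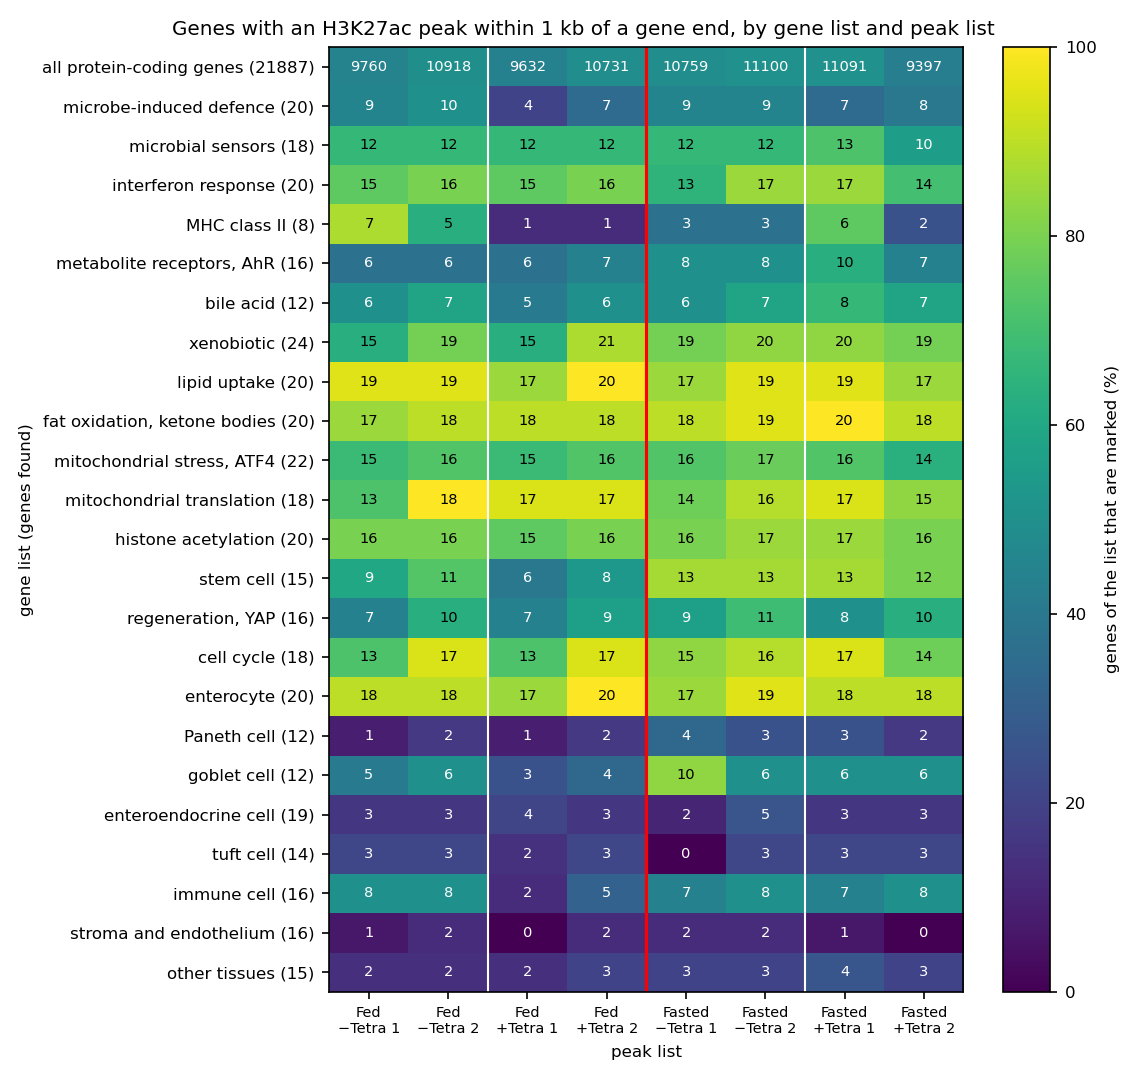
Number (printed) and percent (colour) of the genes of each list marked within 1 kb of a gene end in the 4 fed and 4 fasted H3K27ac lists. The MHC class II row goes from 7 and 5 to 1 and 1 with tetracycline in fed mice and the immune row from 8 and 8 to 2 and 5, while the enterocyte row stays at 17 to 20.

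Genes marked only with tetracycline numbered 81, against 162 only without it. From the lists they were Acot1, a thioesterase of fatty acyl-CoA, as 1 of 20 fat oxidation and ketone body genes, and Tead4, the DNA-binding partner of YAP, as 1 of 16 regeneration genes. Over all genes 0.37% had this call, and 1 other regeneration gene, Clu, was called only without tetracycline. Acot1 (chr12:84009502-84017670) had 0 and 587 bp covered without and 2021 and 2018 bp with tetracycline (log2 change 2.54, SE 0.73, limma adjusted p = 0.48). Tead4 had 0 and 0 bp against 1795 and 1631 bp (log2 change 3.31, SE 1.20, limma adjusted p = 0.68). Both genes had peaks in all 4 fasted lists, at 2040 and 3191 bp without and 3404 and 3210 bp with tetracycline for Acot1, and 3538 and 2694 against 2900 and 3216 bp for Tead4. The untreated fed lists were thus the low ones for these genes among the 8. The remaining 19 fat oxidation and ketone body genes, such as Ppara and Cpt1a, had no call, and the 19 tested on that list had a median log2 change of 0.16. That median ran from 0.06 without Fed_(-Tetra) list 1 to 0.34 without Fed_(+Tetra) list 1.

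By score percentile the first of the 81 were Ttyh1, Tmem235, Ghr, Dnajc1, Soga1, Mtarc1, Reg3a, Chn1, Slc8b1, Fbxo43, Kiz and Pigk. Ghr, the growth hormone receptor (chr15:3317755-3583352), had 485 and 883 bp without and 2730 and 2785 bp with tetracycline (log2 change 1.84, SE 0.38, limma adjusted p = 0.24). It had 5707 and 4725 against 3966 and 2226 bp in fasted mice. Reg3a, a lectin of the antimicrobial family, had 0 and 476 bp against 714 and 2659 bp. Ttyh1, first in rank, was called from its ends, while its territory had 3214 and 3833 bp against 3341 and 4091 bp. Mtarc1, a mitochondrial reductase, had 2903 and 3562 bp against 3826 and 7714 bp. The metabolic genes Gnmt (0 and 0 against 1307 and 846 bp) and Lipg (0 and 1208 against 1305 and 916 bp), named after their values were seen, were marked in all 4 fasted lists, as were 15 of the 81 genes. Over all genes 42.9% to 50.7% were marked in each fasted list, and the share marked in all 4 was not counted. The 15 are thus no sign that these genes are marked by fasting more than others.

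In the fit over all genes the 10 with the lowest p among those with more coverage under tetracycline were Wfdc1, Ghr, Klf15, Esrrg, Sod2, Atp4a, Col25a1, Hmgxb3, Atg10 and Cat, with limma adjusted p-values from 0.21 to 0.42. Wfdc1, a secreted protease inhibitor, had 693 and 655 bp against 2695 and 3318 bp. Klf15, a transcription factor of fasting metabolism, had 925 and 2038 bp against 2682 and 6640 bp, and Esrrg, a nuclear receptor of oxidative metabolism, 982 and 2431 bp against 3222 and 5863 bp. The antioxidant enzymes Sod2 (1254 and 1377 against 3057 and 3607 bp) and Cat (2944 and 3418 against 4288 and 10808 bp) had their highest fed value in Fed_(+Tetra) list 2. For these 5 genes both tetracycline lists lay above both untreated lists, and none passed the test. In fasted mice Wfdc1 had 3490 and 3966 against 2702 and 3059 bp, and Esrrg 12070 and 11005 against 10254 and 6825 bp, so the tetracycline lists were the lower ones there. Genes with most regions only with tetracycline were Mecom, Gdi2 and Hmgxb3 with 3 and Nmnat3, Pga5, Vwce, Ercc1 and Dera with 2; Pga5 and Vwce adjoin each other.

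Stem cell genes (2 of 15) and goblet cell genes (2 of 12) gave calls only without tetracycline, against 0.74% of all genes, and none only with it, against 0.37%. Among 15 stem cell genes, 9 and 11 were marked without and 6 and 8 with tetracycline. Called only without it were Smoc2, a marker of crypt base stem cells, and Cd44, a WNT target of the crypt base. Cd44 (chr2:102811141-102901669) had 2105 and 3791 bp against 899 and 1352 bp (log2 change -1.16, SE 0.32, limma adjusted p = 0.43) and was also called only without tetracycline in fasted mice, with 4936 and 4191 bp against 2593 and 0 bp. Smoc2 had 1027 and 2715 bp against 1282 and 1559 bp, so its coverage overlapped although the peak at its end did not. Rnf43 (13224 and 18572 against 9877 and 14406 bp) and Lrig1 (10404 and 21690 against 8913 and 20120 bp), which restrain WNT and growth factor signals, also overlapped. The 11 stem cell genes tested had a median log2 change of -0.33, with 9 below 0 (-0.05 without Fed_(-Tetra) list 2). Their summed length per Mb was 1.149 and 1.575 kb without and 1.036 and 1.14 kb with tetracycline. In fasted mice it was 2.205 and 2.378 against 1.829 and 1.752 kb, so the states overlapped in neither. With equal numbers of top-scoring peaks the fed values overlapped (1.004 and 1.397 against 1.036 and 1.086 kb), as did those for H3K9ac. In goblet cell genes the calls were Atoh1, which specifies secretory cells (594 and 1532 against 0 and 0 bp), and Creb3l1 (4337 and 4325 against 2561 and 3509 bp), which was called the same way for H3K9ac in fed mice. The 8 goblet cell genes tested had a median log2 change of -0.02, with 4 below and 4 above 0. Clu, a marker of regenerating crypts (424 and 668 against 0 and 0 bp), and Chac1, a target of the ATF4 stress pathway (643 and 749 against 0 and 0 bp), were also marked only without tetracycline. Atoh1 and Clu were marked in all 4 fasted lists.

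No member was called in either direction on the lists for enterocytes, lipid uptake, bile acids, xenobiotics, metabolite receptors, histone acetylation, mitochondrial translation, cell cycle, Paneth, enteroendocrine and tuft cells, stroma or other tissues. Enterocyte genes, such as Alpi and Vil1, had a median log2 change of 0.18, with 16 of 20 above 0 and none of 20 without overlap between the states. Their median was -0.01 without Fed_(+Tetra) list 2 and 0.38 without Fed_(+Tetra) list 1. Summed per Mb they had 4.53 and 4.73 kb without and 4.75 and 5.48 kb with tetracycline, which narrowly did not overlap. With equal numbers of top-scoring peaks these sums overlapped (4.552 and 4.926 against 4.752 and 5.523 kb). Tuft cell genes had 0.559 and 0.421 kb per Mb without and 0.33 and 0.346 kb with tetracycline, although the median log2 change of the 6 tested was 0.14. For H3K9ac they had the reverse order, with 0.253 and 0.336 kb against 0.445 and 0.412 kb. Stroma and endothelium had 0.108 and 0.153 kb against 0.0711 and 0.134 kb per Mb, and the other-tissue genes 0.421 and 0.339 kb against 0.253 and 0.366 kb.

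Away from gene ends the strongest regions only without tetracycline lay in Zfp113 (chr5:138148846-138150383), in the Igh locus (chr12:113423711-113426195), in Tex2 (chr11:106534966-106536879), 5968 bp from Stk17b, a kinase of lymphocytes (chr1:53791205-53792341), and in Mob3a (chr10:80694691-80696014). The region in Igh was 2485 bp wide, with 2485 and 1895 bp covered without and 0 bp in both lists with tetracycline. The strongest only with tetracycline lay in Rhobtb1 (chr10:69218478-69219708), in Gpatch2l (chr12:86276226-86277655), and between genes with Erv3 (chr2:131738837-131739536), Eed (chr7:90043409-90044270) and Pros1 (chr16:62851826-62852624) the nearest protein-coding genes. The one near Pros1 was 799 bp wide, had 522 and 799 bp covered with tetracycline, and was called the same way in fasted mice. Of 1005 miRNA hairpins, 7 lay under peaks only without and 2 only with tetracycline. Of protein-coding genes, counted by peaks near their ends, 0.74% and 0.37% had these calls, so the hairpins did not stand out. Mir7094-1, among the 7, lies within Igh.

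The fasted libraries were not used in making the calls and share no sample with the fed ones. Of the 1658 regions only without tetracycline in fed mice, 108 (6.51%) were called the same way in fasted mice and 38 (2.29%) the opposite way, against 2.65% and 1.33% of all regions. Of the 924 regions only with tetracycline, 27 (2.92%) were called the same way and 33 (3.57%) the opposite way. Both classes were thus called more often than all regions in fasted mice, in either direction. With equal numbers of top-scoring peaks the calls over all regions swapped, to 2.71% only with and 1.02% only without tetracycline in fasted mice. At that setting 38 of 1221 regions only without it (3.11%) were called the same way and 52 (4.26%) the opposite way, and of 1291 only with it 88 (6.82%) the same way and 14 (1.08%) the opposite way. The share with the same call was above that of all regions for both classes at both settings, but so was the share with the opposite call. Standing above all regions thus does not by itself show that direction was kept, and this was not tested. Regions with the same call in fasted mice included parts of Ptpn1, Akna, Rfx2, Itpkb, an inositol kinase of lymphocytes, and Fnbp1. In Akna this was chr4:63402248-63406704, with 4457 and 2713 bp covered in the Fed_(-Tetra) lists. In the other direction they lay near Pros1, Dera and Esrrb and in Chn1 and Musk.

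Of the 162 genes only without tetracycline in fed mice, 21 had the same call in fasted mice and 1 the opposite call, whereas 245 genes (1.12% of all) had the first call there and 105 (0.48%) the second. The 21 included Cd44, Ptpn7, Cyba, an oxidase subunit of phagocytes, Cd72, a B cell receptor inhibitor, and Pglyrp2, which cleaves bacterial peptidoglycan, and these were named after their values were seen. Of the 81 genes only with tetracycline, 1 had the same call in fasted mice and 4 the opposite one. None of the class II, granzyme, Cd8a or Duox2 calls was made in fasted mice. Gzma had 1468 and 0 bp there without and 3176 and 2928 bp with tetracycline, the reverse order, but the difference between the fed and fasted effects did not pass (log2 difference -7.15, SE 1.45, limma adjusted p = 0.91). No gene of 12998 passed that test of the difference, with 250 lower and 169 higher at an unadjusted p under 0.05, and no gene passed in the fasted mice alone.

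H3K9ac, another acetylation of active promoters, was measured in fed mice as well, and the labels do not say whether in the same mice. Of the 1658 regions only without tetracycline, 24 (1.45%) had the same call for H3K9ac and 1 (0.0603%) the opposite call, against 0.927% and 1.24% of all regions. Of the 924 only with tetracycline, 9 (0.974%) had the same call and 10 (1.08%) the opposite call. Regions with the same call lay at Gimap9, a GTPase of lymphocytes, and in Cep250, Rin3, Dock8, an immune cell activator of CDC42, and Sla, and in the other direction in Ppp1r21, Coro2b, Acaa2 and Gata4, a transcription factor of the proximal intestine, and near Zfp637. Of the 162 genes, 6 had the same call, against 0.818% of all genes, and 1 the opposite call. Of the 81 genes, 3 had the same call, against 0.731%, and 4 the opposite call. Class II genes summed to 0.595 and 0.506 kb of H3K9ac per Mb without and 0.320 and 0.300 kb with tetracycline, and immune markers to 0.566 and 0.476 kb against 0.335 and 0.362 kb. Both tetracycline lists thus lay below both untreated lists for each, as they did for H3K27ac. Of the 23 gene lists 7 had this order for H3K27ac in fed mice, 6 for H3K9ac and 4 for H3K27ac in fasted mice, and class II, immune, microbe-induced and interferon genes had it for both marks in fed mice. The reverse order was found for 2, 4 and 2 lists, with fat oxidation and enterocyte genes in it for both marks in fed mice and immune markers in it in fasted mice. With equal numbers of top-scoring peaks the fed H3K27ac values of interferon genes overlapped (1.364 and 0.979 against 0.915 and 1.056 kb per Mb). Those of enterocyte genes overlapped too, while class II, immune and microbe-induced genes kept their order. Fat oxidation genes differed little in fasted mice, with 3.048 and 3.11 kb per Mb without and 3.028 and 2.957 kb with tetracycline. Their median log2 change there was -0.02. Gzma had 2582 and 538 bp of H3K9ac without and 0 and 982 bp with tetracycline, so the states overlapped. H2-Aa had 1384 and 1010 bp against 0 and 0 bp. Duox2 had 3283 bp in 1 untreated list and none in the other 3.

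**Figure D5:**
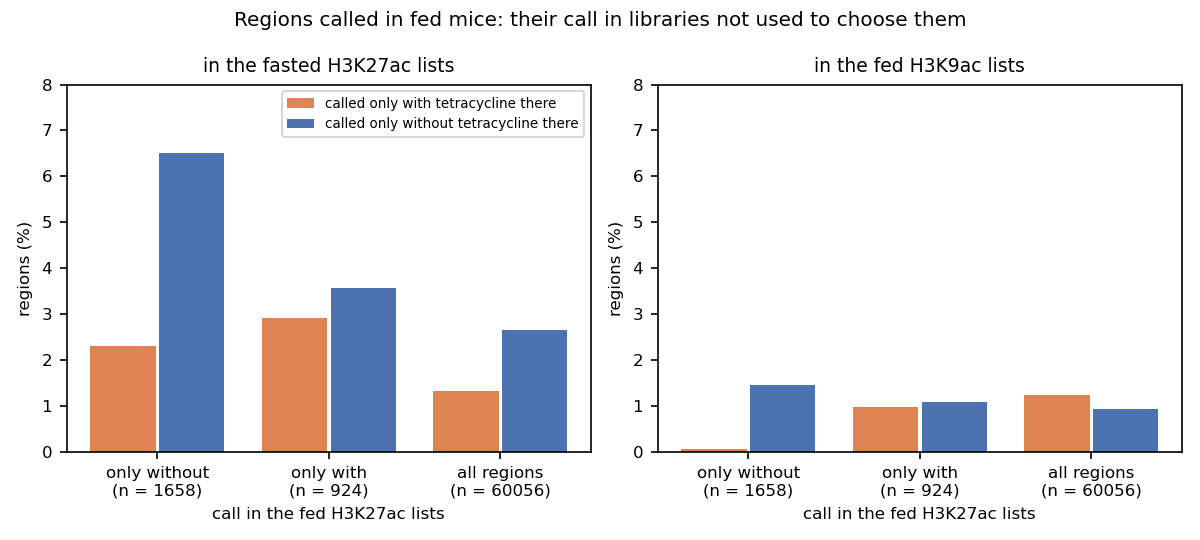
Percent of regions called only with (orange) or only without (blue) tetracycline in the fasted H3K27ac lists (left) and in the fed H3K9ac lists (right), for regions called in the fed H3K27ac lists and for all regions. Regions only without tetracycline reach 6.51% for the same call in fasted mice, and regions only with tetracycline have bars of like height in both directions.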

How the data were processed

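H3K27ac and H3K9ac were profiled by CUT&Tag in small intestinal crypts of fed and fasted mice with or without tetracycline, and each sample had 2 peak lists. The submitters' processing notes name FastQC, Bowtie, SAMtools and the build mm10, without versions; parameters are not given in the sources used here. Each deposited peak has a score from the authors, whose unit no header states, so it was used for ranks and cut-offs inside each list and nothing else. The peak names begin with MACS and the deposited names speak of downsampling, so list length depends on steps that were not seen, read depth is unknown, and a missing peak is not absence of the mark.

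Regions were merged from peaks overlapping by at least 1 bp. Genes came from the RefSeq table of GRCm38.p6, with coordinates counted from 1. Covered length was summed over each protein-coding gene and 5 kb on each side, and log2(bp + 200), centred on the median gene of each list, was fitted with limma 3.58.1 (R 4.3.3) for genes with a mean of at least 500 bp, on the 4 fed H3K27ac lists. P-values were adjusted by Benjamini-Hochberg over all genes tested, with a threshold of 0.05. Values per list were compared by exact permutation. Scripts used Python 3.11.15, pandas 2.3.3 and SciPy 1.17.1 and were tested on simulated data. Presence calls in both lists of a state carry no test.

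Named genes were list members with a call and 2 to 4 examples per list, the 12 highest by score percentile, the 8 with most called regions and the 10 with the lowest p in each direction, and 5 regions per direction in each class; others are said to have been chosen after their values were seen. The members and all gene lists (23 lists, 388 distinct genes) were chosen with earlier results of these data known. Mx1 and Mx2 were not matched in the gene table. Alternatives were equal numbers of top-scoring peaks, the upper 0.5 by score, a minimum width of 500 bp, other gene windows, bridged gaps, other fit settings and each list left out. Per Mb sums, settings for gene lists and receptor loci, and the fits in fasted mice, in H3K9ac and of their difference were chosen after seeing the data.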

Additional observations from a re-analysis of the deposited data

How the results depend on the processing

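With equal numbers of top-scoring peaks the gene-end share turned to -0.14 percentage points, 123 genes were called only with tetracycline, and 88 regions only with and 38 only without it had the same call in fasted mice, where the calls over all regions swapped likewise, to 2.71% only with and 1.02% only without. In the upper 0.5 of each list by score, 389 regions were called only with and 577 only without tetracycline, of which 12 and 53 had the same call in fasted mice, and 7 of those only without it the same call for H3K9ac. With peaks at least 500 bp wide, 5 regions only with tetracycline had the same call for H3K9ac. The fit of covered length gave 0 genes lower with equal numbers of peaks, in the upper 0.5 by score, with 25 kb on each side, without centring and with the list number as a replicate block, and 30 with 1000 bp added. Unadjusted p-values under 0.05 numbered 203 to 652 lower in these fits.

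Leaving out a list makes calls from 3 lists, so counts grow by construction. Across the 4 lists left out, peak number ran from -0.36 to 0.21 (0.12 without Fed_(-Tetra) list 2), covered length from -0.44 to 0.32 (0.19), the gene-end share from -2.48 to 3.63 (-1.09), list similarity from -0.0709 to 0.00706 (0.0054) and log2 peak width from -0.17 to 0.18 (-0.12 without Fed_(-Tetra) list 1). Regions only with tetracycline ran from 1225 to 8595 and only without it from 1864 to 7942, genes from 125 to 722 and from 207 to 767, regions with the same call in fasted mice from 35 to 164 and from 116 to 415, and for H3K9ac from 13 to 90 and from 28 to 97. Genes passing ran from 4 to 212 lower and from 0 to 229 higher, where a lone list is assumed to vary like the other state. The cause of the other changes was not tested. Pairing by list number rests on the deposited names only: the differences between lists 1 and 2 correlated at r = 0.124 over 12546 genes of the 2 states, and the replicate block left peak number at -0.07, covered length at -0.06, the gene-end share at 0.58 and width at 0.01 (exact p = 1 each). An overlap of 0.5 of the shorter piece cannot alter merged regions and was not run, and peak number has no value with equal numbers of peaks.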
